A study of Mus musculus with 36 samples.

Results

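The stem and progenitor genes examined here are Kit, Flt3, Cd34, Gata2, Lmo2, Tal1, Gfi1b, Meis1, Hoxa9 and Mycn, 10 of the 40354 genes in the count tables. They were chosen by name, for their known roles in blood stem and progenitor cells, and all 10 are also among the 19067 genes of the log2 tables. The question they address is whether genes of a progenitor state appear while B cells convert into macrophages, and which of them stay at the lower limit of the counts.

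RNA-seq was performed on primary bone marrow B cells of C57BL/6J mice during B cell to macrophage transdifferentiation (BMT). The cells carried a retrovirus with C/EBPα fused to the estrogen receptor, which holds the factor outside the nucleus until estradiol (E2) is given. The constructs were wild-type C/EBPα, R35A (arginine 35 replaced by alanine) and R35K (the same arginine replaced by lysine), each collected at 0, 1, 3, 6, 18 and 120 hours post induction (hpi). With 2 replicates per group, this gives 18 groups and 36 libraries. All groups share the human CD4 marker of the virus, by which infected cells were selected, and a culture on inactivated mouse embryonic fibroblast (MEF) feeders, which were taken off by their faster adherence before RNA extraction. The induction medium described in the study's methods held IL-7, IL-3, CSF-1, the Kit ligand SCF and Flt3 ligand, so the ligands of both receptors among the 10 genes were supplied. The total count per library was 13044456 to 23131776, with a median of 15471229.5. The labels fitted their markers. All 8 B cell markers tested were lower than at 0 hpi at 1, 18 and 120 hpi in each construct, and all 8 macrophage markers were higher at 18 and 120 hpi.

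Kit and Flt3 are receptor tyrosine kinases that carry survival and growth signals into blood progenitors, and both also mark early B cell precursors or their ancestors. Cd34 is a sialomucin on the surface of many progenitors and of endothelial and some stromal cells. Gata2, Lmo2, Tal1 and Gfi1b are parts of a transcription network of stem, erythroid and megakaryocytic cells, Hoxa9 and Meis1 act as partners that keep progenitors immature, and Mycn is a Myc family factor that drives growth in stem cells and fetal progenitors. Several of these genes are also used outside the blood system, Gata2, Meis1 and Hoxa9 among them in mesenchymal cells.

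By the GENCODE vM21 annotation of mm10, Kit lies at chr5:75574916-75656722 and Flt3 at chr5:147330741-147400489, Cd34 at chr1:194938819-194961279, Gata2 at chr6:88193891-88207032, Hoxa9 at chr6:52223100-52231089 and Meis1 at chr11:18879817-19018985. Lmo2 lies at chr2:103957986-103981878, Gfi1b at chr2:28609450-28621982, Tal1 at chr4:115056426-115071755 and Mycn at chr12:12936093-12941914. Counts are per gene over exons. Stretches upstream of the start site are shown for Tal1 and Hoxa9, the members in which a searched motif was found. Windows of 250 bases upstream of RefSeq start sites (GRCm38.p6, the mm10 build) were given for 9 of the 10 genes, all except Lmo2, and were searched on both strands. The motifs were a GATA motif (AGATAA, present in 9.99% of the 32851 windows of all genes), an E-box (CAGCTG, 13%), a PU.1 motif (AGGAAGT, 7.69%), a C/EBP palindrome (TTGNNCAA, 5.65%) and an AP-1 motif (TGANTCA, 6.75%). In Tal1 the GATA letters, read on the other strand from position -205, are followed directly by the C/EBP letters from position -199, with no shared base. The Hoxa9 stretch lies 5′ of a RefSeq start site that is 3719 bases inside the span of the gene, and its C/EBP letters begin at -243. Capitals mark the matched letters. A match is a description of the sequence and says nothing of binding.
Tal1, chr4:115056176-115056425, plus strand: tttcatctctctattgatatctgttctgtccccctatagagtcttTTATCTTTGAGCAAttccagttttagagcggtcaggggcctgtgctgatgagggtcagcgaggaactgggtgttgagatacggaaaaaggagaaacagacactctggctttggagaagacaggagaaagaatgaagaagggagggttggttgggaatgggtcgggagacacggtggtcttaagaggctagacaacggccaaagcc
Hoxa9, chr6:52227591-52227620, minus strand: cctccatTTGACCAAaggatgagattaaag

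No member stayed at the count floor in all 18 groups. A group was counted as being at the floor where each of its libraries had 3 or fewer counts of a gene, and 11 of the 180 combinations of gene and group met this. Cd34 and Mycn were at the floor at 120 hpi in all 3 constructs, Kit at 120 hpi in R35A and R35K, and Tal1 at 0, 1 and 3 hpi in wild-type cells. Flt3, Gata2, Lmo2, Gfi1b, Meis1 and Hoxa9 were above it in every group. Floors cover counting error only.

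Levels between genes were compared as CPM (counts scaled to library size) per kilobase of exon. In wild-type cells at 0 hpi the order began with Lmo2 at 4.13 and Gfi1b at 3.00, and Kit at 2.07 and Gata2 at 2.01 followed with overlapping replicates. Tal1 was last at 0.0398. At 120 hpi Lmo2 stood at 86.5, Tal1 was next at 1.16, Gfi1b and Flt3 overlapped at 0.680 and 0.647, and Cd34 was last at 0.00656, with replicates that overlapped those of Mycn. Lmo2 thus led the order at both times.

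**Figure D1:**
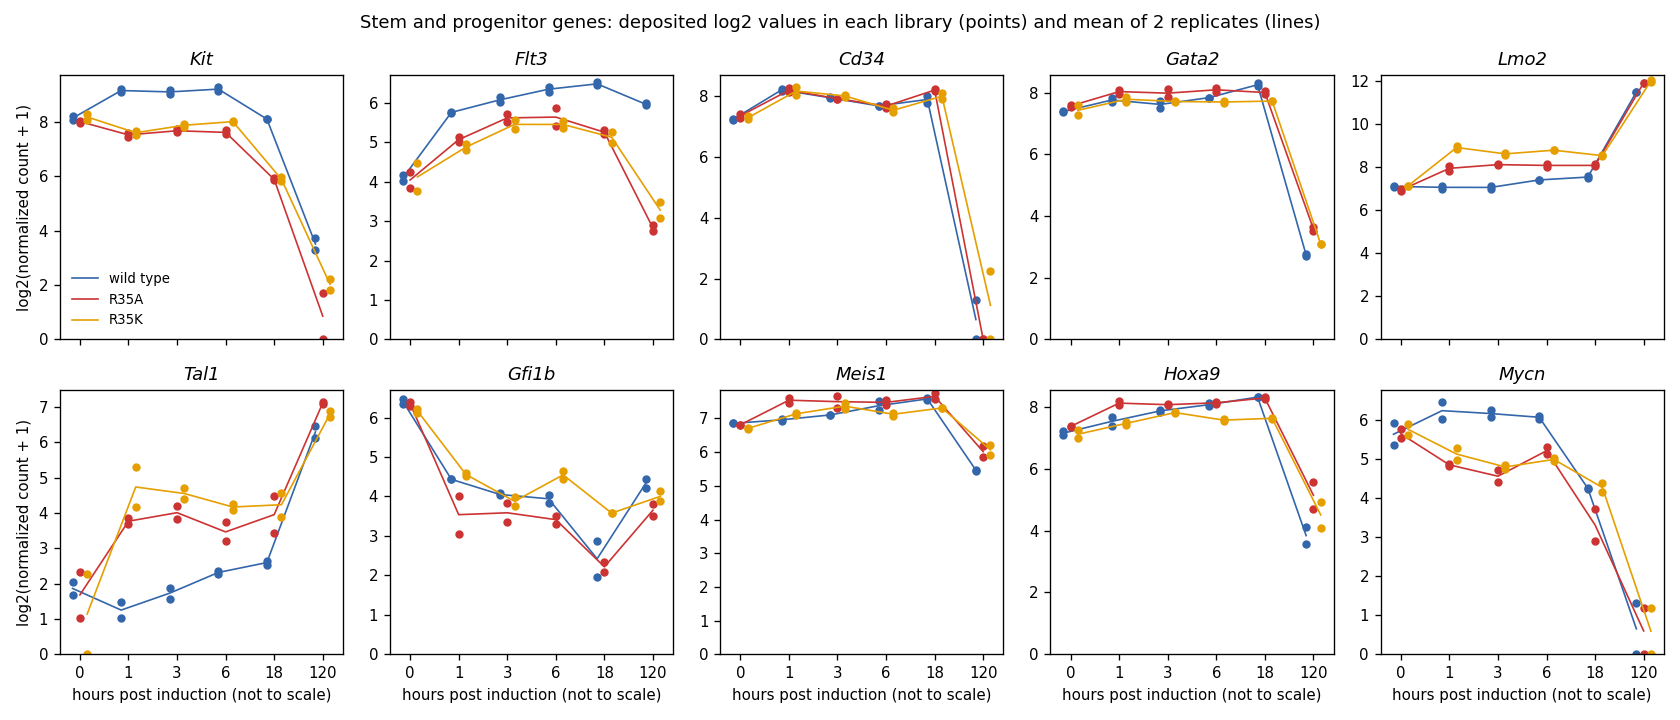
Deposited log2 values (log2 of the normalized count plus 1, vertical axis) of the 10 genes at each time after induction (hours, not to scale), with 1 point per library, 3 constructs in colour and lines through the mean of 2 replicates. Kit, Cd34, Gata2, Hoxa9 and Mycn end low at 120 hpi while Lmo2 and Tal1 end high, and the mutants leave the wild-type curve at 1 hpi for Kit, Lmo2, Tal1 and Mycn.

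A change from 0 hpi was called at a fold change of at least 1.5 in either direction where edgeR's quasi-likelihood test, adjusted after Benjamini and Hochberg over all genes, gave an adjusted p no higher than 0.05. P-values measure the spread between samples labelled as replicates of a group. In wild-type cells 5 of the 10 members were called at 1 hpi, where 19.9% of all tested genes were called, 5 at 3 hpi (23.5% of all genes), 4 at 6 hpi (29.8%), 6 at 18 hpi (47.1%) and all 10 by 120 hpi (63.3%). In R35A cells 8 members were called at 1 hpi (37.3% of all genes), 7 at 3 hpi (36.8%), 6 at 6 hpi (37.7%), then 9 at 18 hpi (42.6%) and all 10 by 120 hpi (63.1%). In R35K cells, fitted alone, 6 members were called at 1 hpi (32.9% of all genes), 8 at 3 hpi (32.7%), 5 at 6 hpi (34.1%), then 7 at 18 hpi (39%) and all 10 by 120 hpi (63.8%). At 120 hpi the direction was downward for 7 members in wild-type cells and for 8 in each mutant. Most calls over all genes were also downward at that time. They were 6832 of the 10757 genes called in wild-type cells, 6617 of 10723 in R35A and 6325 of 10493 in R35K. Lmo2 and Tal1 were higher than at 0 hpi in all 3 constructs, and Flt3 was higher in wild-type cells but lower in both mutants. Because the samples are bulk RNA, fewer cells of a type and less RNA per cell cannot be told apart in any of these changes.

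**Figure D2:**
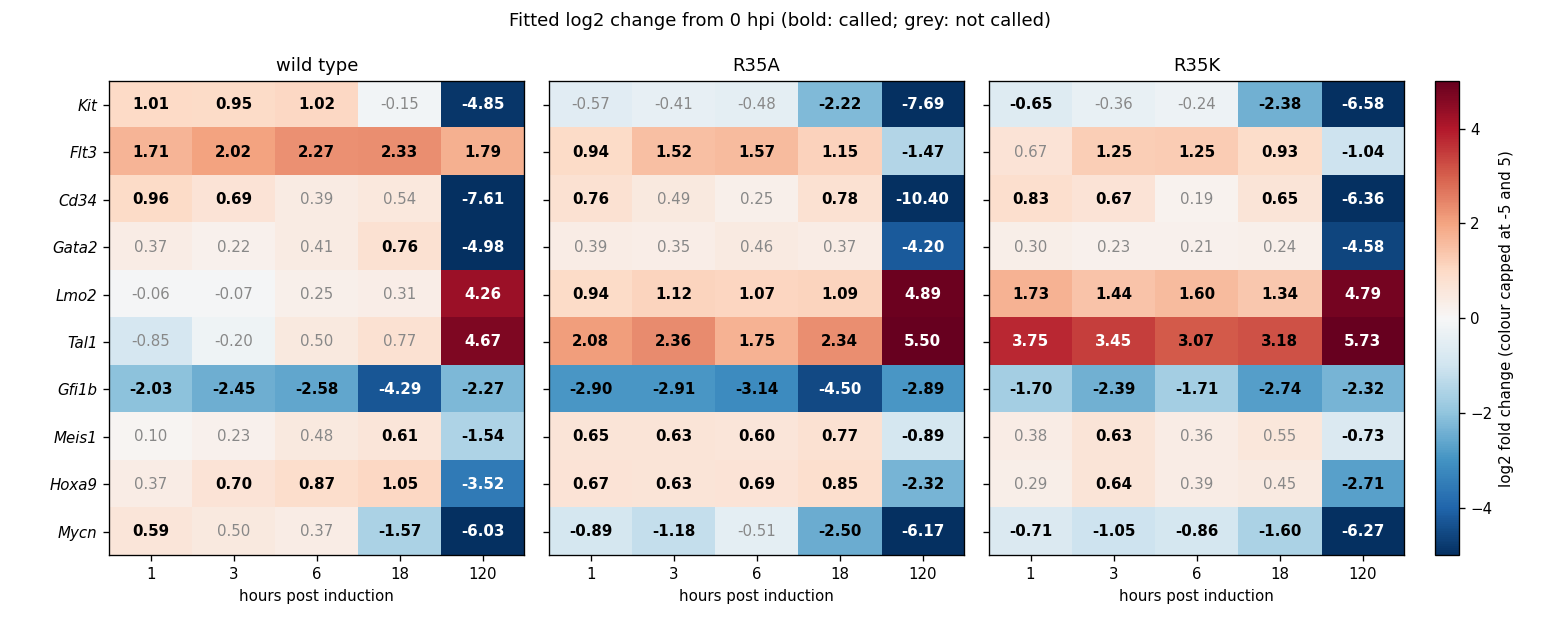
Fitted log2 fold change from 0 hpi of each member (down the side) at the 5 later times (across) in wild-type, R35A and R35K cells, with called values in bold and the others in grey. Bold red cells before 120 hpi that turn blue at 120 hpi mark transient rises, as in Kit of wild-type cells (1.02 at 6 hpi, -4.85 at 120 hpi). Red cells with grey values were not called and do not count as such. Fitted values of groups at the count floor depend on the model's prior count and are no measure of size.

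Kit, the receptor of stem cell factor, rose in wild-type cells and was called higher than at 0 hpi at no time in either mutant. Its counts there were 256 and 271 at 0 hpi, 539 and 660 at 1 hpi, 534 and 643 at 3 hpi, 604 and 590 at 6 hpi, 262 and 285 at 18 hpi, and 9 and 6 at 120 hpi. The rise thus came within the first hour, held for 6 hours and was gone by 18 hpi. The mean level was 18.4 ± 1.24 CPM before induction (SD, n = 2) and 37.9 ± 2.33 CPM at 6 hpi, a log2 change of 1.02 (SE 0.083, edgeR adjusted p 1.9e-15), with no overlap between replicates. In R35A cells the counts were 258 and 310 at 0 hpi, 196 and 211 at 1 hpi, 209 and 194 at 3 hpi, 218 and 251 at 6 hpi, 59 and 70 at 18 hpi, and 0 and 2 at 120 hpi. R35K cells had 352 and 281 counts at 0 hpi, 203 and 194 at 1 hpi, 236 and 375 at 3 hpi, 274 and 301 at 6 hpi, 61 and 62 at 18 hpi, and 2 and 3 at 120 hpi. In R35A the log2 changes of -0.57, -0.41 and -0.48 at the first 3 times were not called, and in R35K -0.65 was called at 1 hpi but -0.36 and -0.24 at the next ones were not. Both mutants were low by 18 hpi, with log2 changes of -2.22 (SE 0.13) in R35A and -2.38 (SE 0.12) in R35K. At 120 hpi Kit had dropped from its starting level by a factor of at least 70.0 in R35A and of at least 77.2 in R35K, both against the floor of 3 counts per library, and its level in wild-type cells was 0.685 ± 0.157 CPM. The fall of R35K at 1 hpi (-0.65) was no longer called without replicate 1 of 0 hpi (-0.53) or replicate 2 of 1 hpi (-0.57).

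Flt3, the receptor of Flt3 ligand and a marker of lymphoid-primed and dendritic progenitors, rose in all 3 constructs from a low start. Wild-type counts were 16 and 14 at 0 hpi, 51 and 60 at 1 hpi, 70 and 71 at 3 hpi, 75 and 87 at 6 hpi, 86 and 89 at 18 hpi, and 46 and 41 at 120 hpi. The level was thus highest at 18 hpi (5.32 ± 0.236 CPM against 1.05 ± 0.0707 CPM at 0 hpi, log2 change 2.33, SE 0.23, edgeR adjusted p 6.2e-13) and was still raised at 120 hpi (log2 change 1.79, SE 0.26). R35A counts were 13 and 22 at 0 hpi, 44 and 77 at 6 hpi, 38 and 44 at 18 hpi, and 5 and 5 at 120 hpi. R35K counts were 24 and 13 at 0 hpi, 48 and 61 at 3 hpi, 41 and 31 at 18 hpi, and 8 and 6 at 120 hpi. In the mutants Flt3 therefore rose and then ended below its start, with log2 changes at 120 hpi of -1.47 (SE 0.43, edgeR adjusted p 0.0024) in R35A and -1.04 (SE 0.42, edgeR adjusted p 0.024) in R35K. The R35K rise at 18 hpi (0.93) lost its call without replicate 2 of 0 hpi (0.62) or replicate 1 of 18 hpi (0.78).

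Of 15 genes for the ligands and signalling proteins of Kit and Flt3, all tested, 8 were higher and 1 was lower at 120 hpi in wild-type cells, with a median log2 change of 0.757 beside -0.359 over all genes. In both mutants 7 were higher and 1 was lower. Of all tested genes 63.3%, 63.1% and 63.8% were called in either direction at 120 hpi in wild-type, R35A and R35K cells. The adaptors Grb2 and Gab2, the kinase Lyn, the ubiquitin ligase Cbl and both ligand genes, Kitl and Flt3l, were higher in each construct at 120 hpi, when Kit was lowest. At 18 hpi the list had 1 gene higher and 5 lower in wild-type cells, where 47.1% of all genes were called.

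Cd34 rose within 1 hour in all 3 constructs and was lost by 120 hpi. Wild-type counts were 139 and 139 at 0 hpi, 279 and 331 at 1 hpi, 244 and 274 at 3 hpi, 196 and 211 at 6 hpi, 205 and 263 at 18 hpi, and 0 and 1 at 120 hpi. R35A counts were 163 and 190 at 0 hpi, 309 and 331 at 1 hpi, 294 and 347 at 18 hpi, and 0 and 0 at 120 hpi. R35K counts were 179 and 154 at 0 hpi, 260 and 324 at 1 hpi, 294 and 239 at 18 hpi, and 0 and 3 at 120 hpi. The first rise, at 1 hpi, was 0.96 (SE 0.10), 0.76 (SE 0.096) and 0.83 (SE 0.11) on the log2 scale in wild-type, R35A and R35K cells. The fall to the floor at 120 hpi was at least 35.2-fold, 43.5-fold and 40.7-fold from 0 hpi in the same order. The call of R35K at 18 hpi (0.65) was lost without replicate 1 of 18 hpi (0.56). An antisense gene that overlaps exons of Cd34, Gm16897, had at most 9 counts in a library.

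Gata2, a zinc finger factor of stem and mast cell progenitors, was raised past the threshold only in wild-type cells at 18 hpi. Wild-type counts were 155 and 155 at 0 hpi, 221 and 237 at 6 hpi, 279 and 325 at 18 hpi, and 4 and 4 at 120 hpi. The 18 hpi libraries lay above all earlier ones, with a log2 change of 0.76 (SE 0.10, edgeR adjusted p 6.1e-09). In the mutants the level at 18 hpi was 16.1 ± 0.64 CPM in R35A, from 12.3 ± 0.412 CPM at 0 hpi, and 13.6 ± 0.00114 CPM in R35K, from 11.2 ± 1.78 CPM. The differences between R35A and wild type in the change from 0 hpi were not called for Gata2 at any time, and -0.39 at 18 hpi (edgeR adjusted p 0.044) was below the fold threshold. By 120 hpi Gata2 was lower by a log2 change of -4.98 (SE 0.27) in wild-type cells, -4.20 (SE 0.21) in R35A and -4.58 (SE 0.25) in R35K, with 4 to 9 counts per library.

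Hoxa9 and Meis1, homeobox factors that form a complex on DNA, rose modestly in all constructs and fell at 120 hpi. Hoxa9 had 141 and 123 counts in wild-type cells at 0 hpi, 241 and 254 at 3 hpi, 254 and 286 at 6 hpi, 300 and 330 at 18 hpi, and 8 and 11 at 120 hpi. Its log2 change was thus 0.70 (SE 0.11) at 3 hpi and 1.05 (SE 0.11, edgeR adjusted p 2.5e-12) at 18 hpi, and -3.52 (SE 0.24) at 120 hpi. In R35A cells it was already raised at 1 hpi (log2 change 0.67, SE 0.10), with 161 and 200 counts at 0 hpi, 325 and 290 at 1 hpi, 313 and 375 at 18 hpi and 36 and 22 at 120 hpi. In R35K cells it passed the threshold at 3 hpi alone (0.64, SE 0.11), with 170 and 130 counts at 0 hpi and 232 and 347 at 3 hpi, and this call was lost without replicate 2 of 0 hpi (0.52). Meis1 had 109 and 105 counts in wild-type cells at 0 hpi, 184 and 193 at 18 hpi, and 32 and 29 at 120 hpi. In wild-type cells it was called higher at 18 hpi (log2 change 0.61, SE 0.13), though no longer without replicate 1 of that time (0.58). In R35A cells Meis1 was called higher at 1, 3, 6 and 18 hpi (0.60 to 0.77), of which 3 hpi was lost without its replicate 2 (0.44) and 6 hpi without its replicate 2 (0.51). In R35K cells it was called higher at 3 hpi (0.63), a call lost without replicate 2 of 3 hpi (0.53). At 120 hpi its log2 change from 0 hpi was -1.54 (SE 0.19) in wild-type cells, -0.89 (SE 0.16) in R35A and -0.73 (SE 0.16) in R35K.

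Other Hoxa, Meis and Pbx genes were mostly higher at 18 hpi and lower at 120 hpi in wild-type cells. Of 11 tested, 9 were higher and 1 was lower at 18 hpi (median log2 change 0.952, beside 0.024 over all genes), and 1 was higher and 8 were lower at 120 hpi (median -2.498, beside -0.359). In R35A cells 8 were higher and 1 was lower at 18 hpi, and in R35K cells 2 were higher and 1 was lower. Of all tested genes 47.1%, 42.6% and 39% were called at 18 hpi in wild-type, R35A and R35K cells.

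Over the 18 groups, markers of fibroblasts, the feeder cell type of these cultures, moved with Hoxa9, Meis1, Gata2 and Cd34. Up to 18 hpi they also moved with Flt3. Of 10 fibroblast markers, 9 were higher than at 0 hpi in wild-type cells at 1 hpi and 9 at 18 hpi, 8 and 8 in R35A cells, and 6 and 4 in R35K cells. At 120 hpi 9, 7 and 7 of them were lower in wild-type, R35A and R35K cells, and Fn1 (fibronectin), the most abundant, was higher in each. Lum had no counts at 120 hpi in any construct. The summed level of the 9 markers other than Fn1, which was left out after its values were seen, was 1949 and 2004 CPM in the wild-type libraries at 0 hpi, 4891 and 4792 CPM at 18 hpi, and 206.8 and 177.6 CPM at 120 hpi. With Fn1 the sum in wild-type cells was 6614 to 6777 CPM at 0 hpi and 9891 to 10010 CPM at 120 hpi. In R35A cells the sum without Fn1 was 2076 and 2125 CPM at 0 hpi, 3358 and 3363 CPM at 18 hpi, and 634.3 and 618.9 CPM at 120 hpi, and in R35K cells it was 1990 and 2059 CPM, 2528 and 2507 CPM, and 538.5 and 459.9 CPM. Across the 18 group means on the log2 scale the sum correlated with Hoxa9 at Pearson's r = 0.981, Gata2 at 0.955, Meis1 at 0.944 and Cd34 at 0.929. Over the 15 groups without 120 hpi these values were 0.827, 0.744, 0.663 and 0.582. Flt3 had r = 0.471 over the 18 groups and 0.902 over the 15, the highest of the 10 genes there. Kit and Mycn had 0.823 and 0.813 over the 18 groups, and 0.231 and -0.112 over the 15. These are descriptions, since the points share libraries, scaling and the same starting population.

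Set against the marker sum directly, Hoxa9 kept the narrowest ratio of the 10 genes between 0 and 18 hpi. It measured 3.22 to 5.84 CPM per 1000 CPM of the 9 markers over the 15 groups before 120 hpi, and 2.93 to 4.67 at 120 hpi. Meis1 lay between 2.06 and 4.04 before 120 hpi and between 6.76 and 14.6 at 120 hpi, so it fell less than the markers. Gata2 and Cd34 lay between 2.96 and 5.87 and between 2.89 and 6.47 before 120 hpi, and at 0.995 to 1.93 and 0 to 0.269 at 120 hpi, below that range. Flt3 lay between 0.486 and 1.15 before 120 hpi, a span close to that of Cd34, and between 0.643 and 20.9 at 120 hpi. The same ratio spanned 1.1 to 9.97 for Kit and 0.0572 to 2.78 for Gfi1b before 120 hpi, and for Lmo2 it went from 2 to 11.1 before 120 hpi to 408 to 980 at 120 hpi. The part of feeder RNA in the levels of Hoxa9, Meis1, Gata2, Cd34 and Flt3 was not tested.

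**Figure D3:**
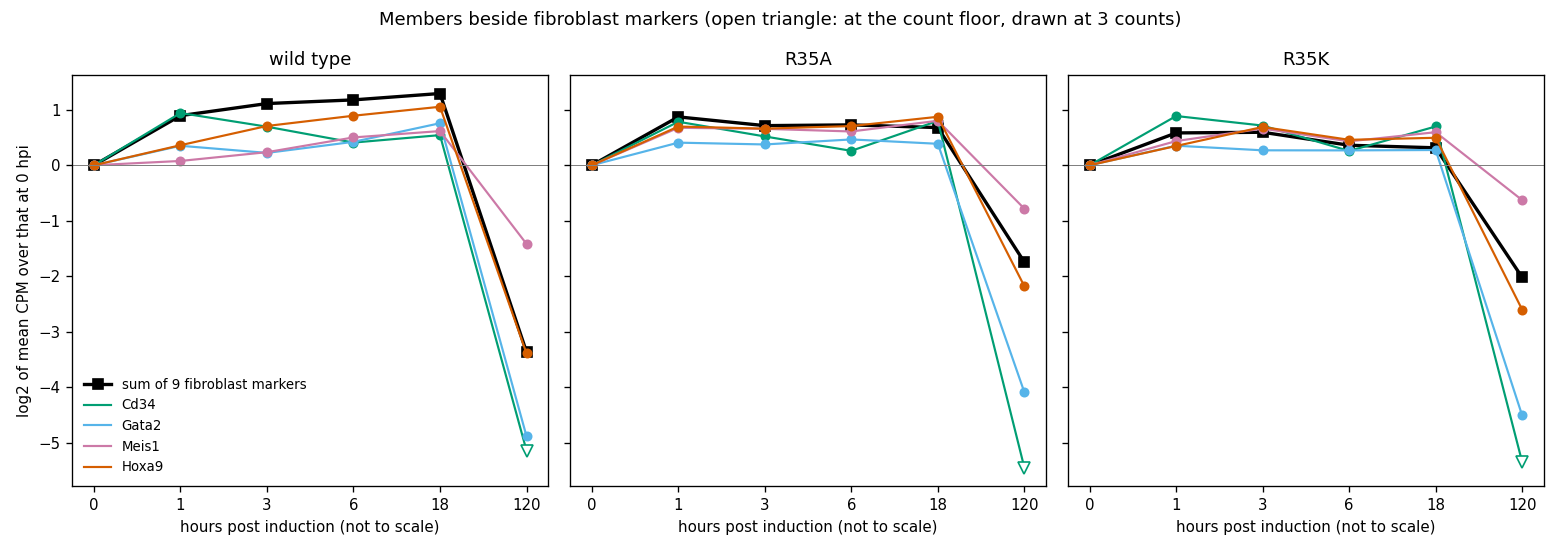
Log2 of the mean CPM over that at 0 hpi (vertical axis) for Cd34, Gata2, Meis1, Hoxa9 and the sum of 9 fibroblast markers (black squares) at each time (hours, not to scale) in the 3 constructs. The 4 genes and the markers rise above 0 by 18 hpi and fall below it at 120 hpi, where the marker sum is at -3.36, -1.75 and -2.02 in wild-type, R35A and R35K cells. Open triangles mark Cd34 at the count floor, drawn at 3 counts.

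Lmo2, a LIM-only adaptor that bridges Tal1 and Gata factors, was the member with the highest final level. Wild-type counts were 128 and 128 at 0 hpi, 136 and 141 at 1 hpi, 165 and 175 at 6 hpi, 182 and 185 at 18 hpi, and 2129 and 1951 at 120 hpi. It stayed near its start through 3 hpi and then rose 20.9-fold by 120 hpi (187 ± 1.29 CPM from 8.95 ± 0.24 CPM, log2 change 4.26, SE 0.072, edgeR adjusted p 8.5e-45). R35A counts were 122 and 144 at 0 hpi, 253 and 292 at 1 hpi, 277 and 269 at 3 hpi, 257 and 344 at 18 hpi, and 2995 and 3367 at 120 hpi. R35K counts were 158 and 144 at 0 hpi, 496 and 488 at 1 hpi, 392 and 628 at 3 hpi, 408 and 371 at 18 hpi, and 3308 and 3260 at 120 hpi. Both mutants showed a first step within 1 hour that the wild type lacked, with log2 changes of 0.94 (SE 0.099) in R35A and 1.73 (SE 0.082) in R35K, and no group overlapped its 0 hpi replicates. They ended at 255 ± 0.106 and 271 ± 8.08 CPM.

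Tal1, the basic helix-loop-helix factor required for the blood lineage, began at the limit of the counts. Wild-type libraries had 3 and 2 counts at 0 hpi, 1 and 2 at 1 hpi, 2 and 3 at 3 hpi, 4 and 4 at 6 hpi, 5 and 5 at 18 hpi, and 51 and 59 at 120 hpi. It was at least 24.2-fold higher at 120 hpi than at 0 hpi, against 3 counts per library. R35A libraries had 1 and 5 counts at 0 hpi, 15 and 13 at 1 hpi, 13 and 17 at 3 hpi, 13 and 11 at 6 hpi, 21 and 12 at 18 hpi, and 105 and 122 at 120 hpi. R35K libraries had 0 and 4 counts at 0 hpi, 38 and 18 at 1 hpi, 26 and 31 at 3 hpi, 25 and 14 at 18 hpi, and 92 and 85 at 120 hpi. Tal1 counts thus exceeded 10 in each mutant library from 1 hpi on, whereas wild-type libraries passed 5 only at 120 hpi. The log2 change at 1 hpi was 2.08 (SE 0.55, edgeR adjusted p 0.00091) in R35A and 3.75 (SE 0.60, edgeR adjusted p 1.4e-06) in R35K. With so few counts at 0 hpi these sizes rested on single libraries: the R35A value was 1.52 without replicate 1 and 3.39 without replicate 2 of 0 hpi, and the R35K value 2.74 and 7.87, though the calls held. The R35A call at 6 hpi (1.75) was lost without replicate 1 of 0 hpi (1.19) or of 6 hpi (1.47).

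Among genes for protein partners of Lmo2 and Tal1 the calls at 120 hpi were mostly downward. Of 12 partner genes 10 were tested in wild-type and R35A cells, of which 6 were lower in wild-type cells (median log2 change -0.659, beside -0.359 over all genes) and 7 in R35A, and the remaining ones were not called. In R35K cells 11 were tested, of which Tal2 was higher and 7 were lower. Of all genes tested, 6832 of 16988 were lower in wild-type cells, 6617 of 16988 in R35A and 6325 of 16434 in R35K. Ldb1, the scaffold of the complex, had 243 CPM at 0 hpi and 183 CPM at 120 hpi in wild-type cells, which was not called. Tcf12, an E protein that pairs with Tal1, went from 244.5 to 144.9 CPM.

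Gfi1b, a repressor of erythroid and megakaryocytic precursors, was lower than at 0 hpi at every later time in every construct. Its counts in wild-type cells were 76 and 81 at 0 hpi, 20 and 23 at 1 hpi, 16 and 17 at 3 hpi, 13 and 16 at 6 hpi, 6 and 3 at 18 hpi, and 13 and 14 at 120 hpi. R35A counts were 81 and 96 at 0 hpi, 17 and 8 at 1 hpi, 4 and 4 at 18 hpi, and 10 and 9 at 120 hpi. R35K counts were 77 and 76 at 0 hpi, 23 and 23 at 1 hpi, 12 and 11 at 18 hpi, and 13 and 11 at 120 hpi. The fall began within 1 hour, with log2 changes of -2.03 (SE 0.23), -2.90 (SE 0.25) and -1.70 (SE 0.22) in wild-type, R35A and R35K cells, and the R35A value was -3.51 without replicate 1 of 1 hpi. From 18 to 120 hpi Gfi1b rose again, by 2.03 (SE 0.48, edgeR adjusted p 0.00016) on the log2 scale in wild-type cells and 1.61 (SE 0.53, edgeR adjusted p 0.0064) in R35A, while the 0.43 (SE 0.39) of R35K was not called. Of 7 genes for Gfi1 and the shared corepressors, 1 was higher and 3 were lower at 18 hpi in each construct, and Gfi1 was among the 3. The share of all genes called at that time was 47.1%, 42.6% and 39% in wild-type, R35A and R35K cells. Kdm1a, the demethylase recruited by Gfi1b, had 139.5 CPM at 0 hpi and 84.7 CPM at 120 hpi in wild-type cells.

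Mycn was held through 6 hpi in wild-type cells and fell early in the mutants. Wild-type counts were 38 and 55 at 0 hpi, 85 and 72 at 1 hpi, 68 and 84 at 3 hpi, 67 and 67 at 6 hpi, 17 and 19 at 18 hpi, and 0 and 1 at 120 hpi. Its rise at 1 hpi (log2 change 0.59, SE 0.20, edgeR adjusted p 0.013) was lost without replicate 1 of 0 hpi (0.32) or of 1 hpi (0.37). R35A counts were 52 and 56 at 0 hpi, 32 and 30 at 1 hpi, 25 and 20 at 3 hpi, 36 and 52 at 6 hpi, 12 and 8 at 18 hpi, and 1 and 0 at 120 hpi. R35K counts were 67 and 50 at 0 hpi, 38 and 32 at 1 hpi, 27 and 43 at 3 hpi, 22 and 17 at 18 hpi, and 1 and 0 at 120 hpi. The log2 change at 1 hpi was -0.89 (SE 0.24) in R35A and -0.71 (SE 0.22) in R35K, the latter lost without replicate 1 of 0 hpi (-0.55) or replicate 2 of 1 hpi (-0.55). At 120 hpi Mycn had fallen at least 11.8-fold, 13.4-fold and 14.2-fold from its start in wild-type, R35A and R35K cells. Of 10 other genes of the Myc family and its partners, 4 were higher and 2 lower at 120 hpi in wild-type cells, with Myc among those higher and Mycl and Mxd3 lower. Of all tested genes 63.3% were called in either direction in these cells at 120 hpi.

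A transient rise was defined as a call above 0 hpi at 1, 3, 6 or 18 hpi with a call below that same time at 120 hpi. It was met by 6 members in wild-type cells (Kit, Cd34, Gata2, Meis1, Hoxa9 and Mycn), where 16.4% of all tested genes met it. It was met by 4 members in R35A cells (10.9% of all genes) and by 4 in R35K cells (7.56% of all genes), in both cases Flt3, Cd34, Meis1 and Hoxa9. With a 2-fold threshold the members were Kit and Hoxa9 in wild-type cells and Flt3 in each mutant. The share of all genes that met the definition at this threshold was not computed. Mycn left the wild-type set at an adjusted p of 0.01, and without replicate 1 of 0 hpi, replicate 1 of 1 hpi or either replicate of 18 or 120 hpi (5 members each, but 4 without replicate 1 of 18 hpi, where Meis1 left as well). With no low-count filter Flt3 met the definition in wild-type cells in place of Mycn. In R35K cells Hoxa9 dropped out without replicate 2 of 0 hpi and Meis1 without replicate 2 of 3 hpi, leaving 3 members each time. Of the 6 wild-type genes, Gata2, Meis1 and Hoxa9 were highest at 18 hpi, as was the sum of the 9 fibroblast markers. Cd34 was highest at 1 hpi, with 18.6 CPM beside 14.2 CPM at 18 hpi. All 6 were lower at 120 hpi than at 0 hpi, as was the marker sum.

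R35A cells were compared with wild-type cells at the same time to ask where the arginine 35 mutation changes these genes. At 0 hpi edgeR called 0 of the 10 members and 0% of all genes, while 261 genes passed the fold threshold with a p no higher than 0.05 before adjustment. The number of members called was 6 at 1 hpi (19.3% of all genes), 4 at 3 hpi (17%), 4 at 6 hpi (13.7%), then 4 at 18 hpi (10.1%) and finally 5 at 120 hpi (18.8%). Kit was lower in R35A cells at every time after 0 hpi, by log2 differences of -1.71 (1 hpi, SE 0.087), -1.49 (3 hpi), -1.63 (6 hpi) and -2.19 (18 hpi), and was at least 2.83-fold lower at 120 hpi, where R35A was at the floor. Flt3 was lower at 1, 6, 18 and 120 hpi, with the difference at 120 hpi at -3.28 (SE 0.34, edgeR adjusted p 8.3e-12). Mycn was lower at 1, 3 and 6 hpi (-1.50, -1.69 and -0.89). The receptors and Mycn therefore shared a direction, opposite to that of Lmo2 and Tal1.

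Lmo2 was higher in R35A cells at 1, 3, 6 and 18 hpi, with log2 differences of 0.82 (SE 0.098), 1.01 (SE 0.098), 0.65 (SE 0.091) and 0.60 (SE 0.091). Its difference at 120 hpi, 0.46 (SE 0.047), was below the fold threshold. Tal1 was at least 4.29-fold higher at 1 hpi and at least 5.27-fold higher at 3 hpi, where the wild-type libraries were at the floor, and its log2 difference was 1.60 (SE 0.47) at 18 hpi and 0.86 (SE 0.19) at 120 hpi. Gfi1b was lower at 1 hpi alone (-0.93, SE 0.34). Cd34 and Gata2 were called at no time. Several of these calls rested on single libraries. The value was -0.52 for Flt3 at 6 hpi without R35A replicate 1, 0.58 for Lmo2 at 6 hpi without R35A replicate 1, 0.57 and 0.56 for Lmo2 at 18 hpi without replicate 2 of R35A or wild type, 1.00 and 1.54 for Tal1 at 18 hpi without R35A replicate 1 or wild-type replicate 2, and -0.47 for Gfi1b at 1 hpi without R35A replicate 2 (-1.54 without replicate 1, still called). The Gfi1b call was also lost without either wild-type replicate of 1 hpi (-0.94 and -0.92).

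At 120 hpi Hoxa9 (log2 difference 1.42, SE 0.34, edgeR adjusted p 0.00043) and Meis1 (0.61, SE 0.22, edgeR adjusted p 0.021) were higher in R35A than in wild-type cells. Hoxa9 had 36 and 22 counts in R35A against 8 and 11 in wild type, and Meis1 had 44 and 62 against 32 and 29, without overlap. Of the 10 fibroblast markers, 7 were also higher in R35A at this time, with a median log2 difference of 1.551 beside 0.048 over all genes, and of the 11 Hoxa, Meis and Pbx genes 7 were higher. The part of the fibroblast markers in the Hoxa9 and Meis1 differences was not tested. The Hoxa9 call was lost without R35A replicate 1 (0.93), and that of Meis1 without R35A replicate 2 (0.42) or either wild-type replicate (0.62 and 0.59).

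**Figure D4:**
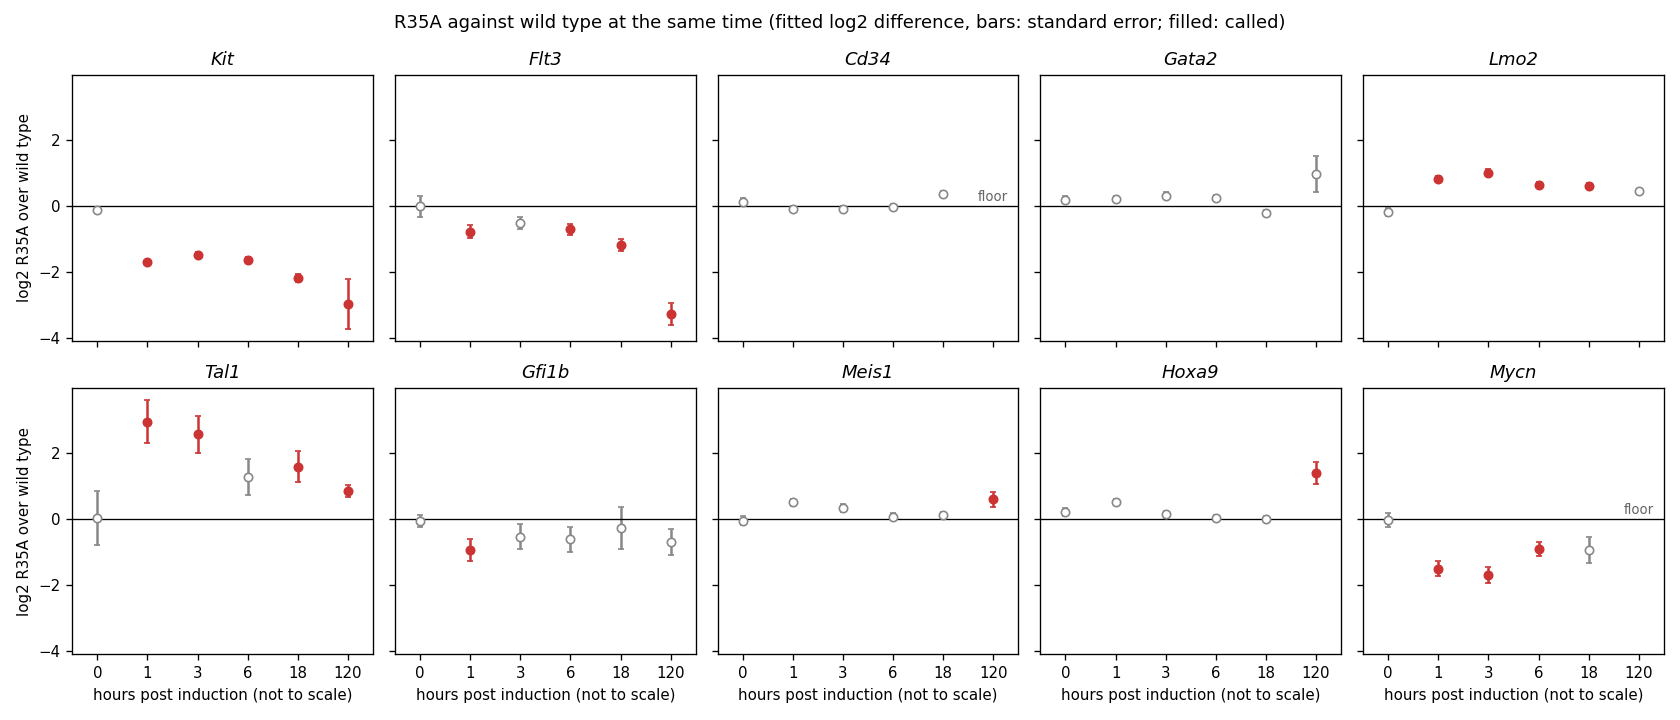
Fitted log2 difference of R35A from wild type at the same time (vertical axis, bars show the standard error) for each member against time (hours, not to scale), with filled points for called differences. From 1 hpi on Kit lies below 0 (-2.19 at 18 hpi) and Lmo2 and Tal1 lie above 0. Cd34 and Gata2 have no called point. The word floor stands where both constructs are at the count floor.

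The change from 0 hpi was also compared between R35A and wild type within the same fit. This difference was called for 4 members at 1 hpi (14% of all genes), 3 at 3 hpi (13%), 3 at 6 hpi (10.3%), then 3 at 18 hpi (8.36%) and finally 4 at 120 hpi (14.5%). Kit and Lmo2 were called at all 5 times, in opposite directions. R35K was not tested against the other constructs, because its counts stand in a table of their own. Side by side, the R35K levels at 1 hpi were 12.7 ± 0.899 CPM for Kit, 31.4 ± 1.58 CPM for Lmo2 and 1.80 ± 0.972 CPM for Tal1, where R35A had 11.5 ± 0.833, 15.4 ± 1.87 and 0.791 ± 0.064 CPM and wild type had 36.6 ± 1.70, 8.51 ± 0.605 and 0.0901 ± 0.0346 CPM.

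Other genes of progenitor states were counted in lists. Of 25 hematopoietic stem and multipotent progenitor genes, 22 were tested, and 6 were higher and 7 lower at 18 hpi in wild-type cells, against 1 higher and 14 lower at 120 hpi (median log2 change -1.465, beside -0.359 over all genes). The 6 were Procr, Mecom, Hlf, Ly6a, Hoxb5 and Esam, and the 7 included the stem cell factors Erg, Fli1, Lyl1 and Myb. Of the 10 fibroblast markers 9 were likewise higher at 18 hpi and 9 lower at 120 hpi in these cells, and their part in the list was not tested. In R35A and R35K cells 5 of the 22 list genes were higher at 18 hpi, with 7 and 8 lower. Of all 16988 genes tested, 4057 were higher and 3937 lower at 18 hpi in wild-type cells. In R35A cells 3561 were higher and 3675 lower, and in R35K cells 3031 and 3375 of 16434. At 120 hpi 3925 of all genes were higher and 6832 lower in wild-type cells. Myb, which sustains immature progenitors, went from 314 CPM at 0 hpi to 29.7 CPM at 18 hpi and 3.74 CPM at 120 hpi in wild-type cells. Of 15 granulocyte-macrophage progenitor genes, 13 were tested in wild-type and R35A cells and 11 in R35K cells. At 18 hpi 3 were higher and 7 lower in wild-type cells, 4 and 8 in R35A, and 4 and 6 in R35K. Fcgr3 and Cd63, which macrophages also express, and the granule gene Prtn3 were among those higher in all constructs, and the granule gene Mpo was among those lower. The neutrophil markers, which summed to 56.09 to 56.34 CPM in wild-type cells before induction and to 2.233 to 2.257 CPM at 18 hpi, fell as Mpo did, and all 6 tested were lower at 1 hpi in each construct. Their part in the changes of the granule genes was not tested. Of 10 lymphoid progenitor genes, 9 were lower at 18 hpi in wild-type cells, Rag1, Rag2 and Dntt among them. In R35A and R35K cells 7 were lower at that time, and Il7r was higher in R35K. At 120 hpi 7 were lower in each construct, while Cd93 was higher in each and Il7r in wild-type cells.

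The genes most like each member were those with the highest Pearson correlation of log2 group means over the 18 groups. Groups share libraries, scaling and starting cells, so these values only describe the pattern, and with Spearman's rho 2 of the 30 nearest genes (3 per member) were shared. Nearest to Kit was Dio2 (r = 0.982), to Flt3 Crispld2 (0.921), to Cd34 Igfbp5 (0.996), to Gata2 Mast4 (0.998), to Meis1 Arhgap5 (0.989), to Lmo2 Gusb (0.995), to Tal1 Ms4a6b (0.986), to Gfi1b Ralgps2 (0.978), to Hoxa9 Actn1 (0.996) and to Mycn Dnajc6 (0.989). Gusb is a lysosomal enzyme and Ms4a6b a myeloid membrane protein. Flt3 had the lowest of these values, so its pattern had the least close match.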

How the data were processed

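RNA-seq libraries of 3 constructs at 6 times (2 replicates each, 36 libraries) were analysed from count tables and log2 tables, 1 pair for wild type with R35A and 1 for R35K. The counts deposited by the authors are unnormalized reads per gene. The deposited log2 values are log2 of the count over its DESeq2 size factor plus 1, and this formula returned 100% of the values. The submitters' processing notes name FastQC, STAR 2.5.0a and DESeq2 1.14.1, with the mm10 build. The annotation release and the strand setting of the counting are not given in the sources used here, so reads of overlapping antisense genes cannot be assigned with certainty. No column of per-sample values was left unused.

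Tests were run in R 4.3.3 with edgeR 4.0.16 (quasi-likelihood F test, TMM scaling, filterByExpr) and Benjamini-Hochberg adjustment over 16988 genes for wild type with R35A and 16434 genes for R35K. A call needed a fold change of at least 1.5 and an adjusted p of at most 0.05. The study's methods name the same fold with a p-value whose adjustment is not stated. CPM used TMM factors over all 36 libraries, and likeness used log2(CPM + 0.1). DESeq2 1.42.0 was an alternative. The script was tested on simulated data. All 10 members were tested and described. From each other list the genes called in each direction were counted, levels were given for some of its 3 most abundant genes, and these and further genes were named after their calls were seen. Members and lists were chosen with earlier results of these data known. Of the gene symbols, 39171 were found in GENCODE vM21, which gave coordinates and exon lengths. Alternatives covered the fold and p thresholds, the filter, the scaling, the libraries fitted together, a replicate block, the count floor and each library left out. Replicate numbers showed no general pairing of the samples. R35K was not tested against the other constructs.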

Additional observations from a re-analysis of the deposited data

Results flagged for a closer look

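The change from 0 hpi differed between R35A and wild-type cells in 17 cases by the test of the difference itself, within the edgeR fit of both constructs. Values are the log2 change in R35A minus that in wild type. For Kit they were -1.59 (1 hpi), -1.37 (3 hpi), -1.51 (6 hpi), -2.06 (18 hpi) and -2.84 (120 hpi). The last of these involves an R35A group at the count floor and is no measure of size, and it was not called without R35A replicate 1 of 120 hpi (-2.00). For Lmo2 they were 1.00 (1 hpi), 1.19 (3 hpi), 0.82 (6 hpi), 0.78 (18 hpi) and 0.63 (120 hpi), the last not called without R35A replicate 2 of 0 hpi (0.58). Mycn differed by -1.48 (1 hpi), -1.68 (3 hpi) and -0.87 (6 hpi). The Mycn difference at 6 hpi was not called without replicate 1 of R35A 0 hpi (-0.77), R35A 6 hpi (-0.79), wild-type 0 hpi (-0.61) or wild-type 6 hpi (-0.83).

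Flt3 differed by -1.18 at 18 hpi and -3.27 at 120 hpi. The first was not called without replicate 2 of R35A 0 hpi (-0.94), R35A 18 hpi (-1.11) or wild-type 0 hpi (-1.11). Hoxa9 differed by 1.2 at 120 hpi, not called without replicate 1 of R35A (0.71) or wild type (0.93) at that time. Tal1 differed by 2.94 at 1 hpi, with wild-type libraries at the count floor. This call was lost in 6 of the fits that left out a library, with values of 2.38 without R35A replicate 1 of 0 hpi, 2.85 without R35A replicate 1 of 1 hpi, 2.66 and 3.17 without wild-type replicate 1 or 2 of 0 hpi, and 2.64 and 3.38 without wild-type replicate 1 or 2 of 1 hpi.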

How the results depend on the processing

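No member call that was checked singly changed direction under the alternatives run. With a 2-fold threshold the member calls against 0 hpi in R35A cells went from 40 to 26, those of R35A against wild type from 23 to 14, and the transient rises from 6 to 2 in wild-type, 4 to 1 in R35A and 4 to 1 in R35K cells. Shares of all genes at that threshold were not computed. A floor of 10 counts raised the gene and group combinations at the floor from 11 to 24, and with Spearman's rho 2 of the 30 most similar genes were shared. Leaving out 1 library gave 29 to 32 calls against 0 hpi in wild-type cells, 39 to 41 in R35A and 34 to 37 in R35K, 21 to 24 calls of R35A against wild type, and 4 to 6, 4 to 4 and 3 to 4 transient rises. Replicate numbers showed no general pairing of the samples. The median correlation of deviations was -0.00508 over 153 pairs of groups. Its range was -0.396 to 0.263, with 6 pairs over 0.1 and 10 under -0.1. The replicate block gave 30, 40, 37 and 23 calls. It ended 1 of 116 member calls, that of Tal1 at 1 hpi in the difference of changes. DESeq2's Wald test ended 10 of them, and its size factors in edgeR ended 3 and moved the median of all genes by up to 0.158 on the log2 scale. The causes were not tested. Depth limits the members where they are near the floor, among them Tal1, Mycn, Kit, Cd34, Gata2, Flt3 and Gfi1b. The 2 libraries per group limit every error given.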

Other observations

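Genes of other blood lineages that share factors with the members were also counted. At 18 hpi 47.1%, 42.6% and 39% of all tested genes were called in wild-type, R35A and R35K cells. Of 14 megakaryocyte and erythroid genes 7 were tested, and Pf4, Nfe2 and Vwf were higher and Zfpm1 and Car2 lower at 18 hpi in each construct. Pf4, a platelet chemokine that macrophages can also express, went from 2.06 CPM at 0 hpi to 13.4 CPM at 18 hpi and 335.6 CPM at 120 hpi with wild-type C/EBPα, and Zfpm1, a Gata cofactor, from 154.9 to 56.8 and 12.3 CPM. Of 10 mast cell and basophil markers 4 were tested in wild-type and R35A cells, and Mcpt8 and Il1rl1 were higher at 18 hpi and lower at 120 hpi in both. Hdc was higher at 120 hpi in each construct, and Ms4a2 was lower then in wild-type and R35A cells. Of the 10 markers 5 were at the count floor at 18 hpi and 7 at 120 hpi in each construct. In R35K cells the log2 changes at 18 hpi, 0.42 for Mcpt8 (edgeR adjusted p 0.00104) and 0.19 for Il1rl1 (edgeR adjusted p 5.63e-05), were below the fold threshold. Il1rl1, the IL-33 receptor, had 227.4 CPM at 0 hpi, 393.9 CPM at 18 hpi and 15.7 CPM at 120 hpi in wild-type cells. It made up most of the summed level of the 10 markers, which was 237 CPM at 0 hpi in these cells. Of the 10 fibroblast markers 9 were likewise higher at 18 hpi and 9 lower at 120 hpi in wild-type cells. Their part in the levels of Il1rl1 and Mcpt8 was not tested. Of 9 dendritic cell markers, Flt3 included, 7 were tested, with 5 higher and 1 lower at 18 hpi in wild-type cells. Of 6 endothelial markers 4 were tested there, with 2 higher and 2 lower. Of 6 T cell markers 2 were tested, of which Trac was lower at 18 hpi in each construct.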
